A study of Mus musculus with 4 samples.

Results

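The 36 genes described here belong to the integrated stress response and to the amino acid supply that it controls. They were picked by gene symbol, and all 36 were found among the 23240 gene rows of the table. They fall into 4 roles: 9 stress factors, 7 amino acid transporters, 8 enzymes of serine, one-carbon, proline and asparagine synthesis, and 12 aminoacyl-tRNA synthetases. Their RNA was measured in 4 libraries from a mouse acute myeloid leukaemia that the labels name by RUNX1 and FLT3-ITD, an activating duplication within the FLT3 receptor. Bone marrow of leukaemic mice on a B6 background was kept for 22 h in SFEM medium with FLT3L, SCF, IL3 and IL11, and cells with both GFP and BFP but without CD11b and Gr1 on their surface were sorted for RNA. One culture of each genotype received 200 nM 4OHT (4-hydroxytamoxifen, a ligand of oestrogen receptor fusion proteins) and the other an equal volume of its solvent, ethanol (EtOH). The labels do not say what 4OHT switches in these cells. Replicate 1 was Runx1 delta/delta and replicate 2 was Runx1 delta/+, so that each treatment had 1 library of each genotype, and all 4 libraries carried at least 1 Runx1 delta allele. Genotype, replicate number and the mouse of origin cannot be told apart. Nothing states that the cultures came from separate mice, and the p-values measure only the spread between these samples. In the main fit that spread is how far the 4OHT response differed between the genotypes, moderated by the spread of all genes. A true difference in response between genotypes would therefore count as spread.

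In the integrated stress response, any of 4 kinases phosphorylates the translation factor eIF2 when amino acids or haem run short, when double-stranded RNA appears or when proteins misfold in the endoplasmic reticulum. Protein synthesis then falls in general, while the mRNA of the transcription factor ATF4 is translated more. ATF4 and its target CHOP, the product of Ddit3, switch on genes for amino acid uptake, amino acid synthesis and tRNA charging, together with feedback inhibitors of the pathway. In blood cells the haem-regulated kinase of this pathway is best known from red cell precursors.

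Levels are RPKM, reads divided by gene length and by the mapped reads of the library, which can be set side by side between genes. The libraries held 34.6, 36.7, 33.7 and 39.4 M mapped reads by an estimate from the RPKM values. Their order is EtOH and 4OHT of Runx1 delta/delta, then EtOH and 4OHT of Runx1 delta/+. Changes are differences of log2(RPKM + 1), 4OHT minus EtOH, fitted with limma over the 9595 genes whose mean reached 1 RPKM, with genotype as a second term. A gene was called at a Benjamini-Hochberg adjusted p under 0.05. Folds quoted for a genotype are plain ratios of RPKM between its pair of libraries. The sorted cells held erythroid RNA in amounts that differed with treatment: the 15 erythroid markers in the table summed to 63146 and 33809 RPKM with EtOH and to 4670 and 3073 with 4OHT (Runx1 delta/delta and delta/+), which is 12.9%, 7.95%, 1.02% and 0.748% of all RPKM. Of these 15 markers 14 were called lower, as were 5 of 5 tested megakaryocyte markers; 3 of 6 tested mast cell and basophil markers were called higher, with summed levels of 12.4 and 15.5 RPKM with EtOH and 144 and 28.6 with 4OHT. Of the 8 blast markers Myb reached 17.0 to 99.2 RPKM and Flt3 12.6 to 46.3, whereas Kit stayed at or below 1.61 and Cd34 and Mpo below 1. These 8 summed to 51.8 and 104 RPKM with EtOH and to 140 and 132 with 4OHT, and 1 of 3 tested was called higher. Itgam, which codes for the CD11b that the sort removed, was at most 0.358 RPKM, and lymphoid markers summed to at most 0.546. In bulk RNA fewer cells of a type and less RNA per cell cannot be told apart, and the part of these cell markers in the results below was not tested.

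ATF4 and CHOP bind composite C/EBP-ATF elements, known as CARE, whose core letters are TGATGNAA. This core was searched on both strands, as TGATGNAA or TTNCATCA, in RefSeq promoters of build GRCm38.p6 that span 250 bases before to 50 bases after the start. A promoter was at hand for 29 of the 36 genes, and 11 of these (37.9%) held the core, against 1219 of 27025 genes with a promoter (4.51%). The 36 genes were picked for their place in the response that ATF4 drives, so this higher share is no independent result. The stretches with a match before the start are shown because they are the sequence feature that the search found in genes of all 4 roles, called or not. They run 5′ to 3′ in the direction of the gene, with the CARE core in capitals and up to 20 flanking bases in lower case:
Chac1: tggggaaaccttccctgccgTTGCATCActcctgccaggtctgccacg
Slc7a11: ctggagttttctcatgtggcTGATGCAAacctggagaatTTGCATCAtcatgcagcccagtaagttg
Asns: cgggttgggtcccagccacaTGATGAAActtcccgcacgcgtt
Pycr1: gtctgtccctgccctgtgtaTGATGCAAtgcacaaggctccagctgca
Gars: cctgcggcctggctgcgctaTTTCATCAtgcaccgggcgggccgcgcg
Aars: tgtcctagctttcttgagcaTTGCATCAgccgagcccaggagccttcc
Tars: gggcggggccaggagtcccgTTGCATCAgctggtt

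In GRCm38.p6 these lie at chr2:119351029-119351076 on the plus strand (Chac1), chr3:50443633-50443699 on the minus strand (Slc7a11), chr6:7693210-7693252 on the minus strand (Asns) and chr11:120643824-120643871 on the minus strand (Pycr1). The synthetase stretches lie at chr6:55037951-55037998 on the plus strand (Gars), chr8:111033710-111033757 on the plus strand (Aars) and chr15:11399659-11399693 on the minus strand (Tars). The core begins 193 bases before the start in Chac1, 66 and 47 bases before it in Slc7a11, 103 in Pycr1 and 23 in Asns. In the synthetases it begins 30 bases before the start in Gars, 112 in Aars and 15 in Tars. Trib3, Yars and Iars held the core after the start, as did Aars a second time, and the match of Slc1a4 crossed the start. A search for TGACGTG, the core of the element bound by XBP1 and ATF6, on both strands found it in 1 of the 29 promoters, that of Eprs, against 2.22% of all genes. A match of letters is a description and not a binding site. Of the 11 genes with a CARE core, Chac1, Trib3 and Aars were called lower with 4OHT, Slc7a11 was too low to test and the other 7 were not called. Of the 35 tested genes described here 22.9% were called lower and 14.3% higher, and of all genes tested 10.2% and 22.2%. A link between the core and the direction of change was not tested.

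Calls with 4OHT went in both directions, and most of the falls were among stress factors. Of the 35 genes tested 13 were called (37.1%), against 32.4% of all genes tested. Among them 8 fell (22.9%, against 10.2% of all genes) and 5 rose (14.3%, against 22.2% of all genes). Of the 8 that fell 6 were stress factors and 2 were synthetases, while the 5 that rose were 3 transporters, Xbp1 and Wars. The median change of the 35 genes was 0.06, beside 0.16 for all genes tested. When libraries were rescaled by the median ratio of genes, the median of all genes moved to -0.04 and that of these genes to -0.15, and 10 genes were called lower and 5 higher. Over all genes tested the same rescaling turned 2130 calls higher and 983 lower into 1441 and 1666. EtOH and 4OHT values did not overlap for 20 of the 36 genes, while 55.4% of all genes tested showed no overlap. Without the genotype term only Ddit3 was called (adjusted p = 0.0475), against 2.43% of all genes, so that 12 of the 13 calls rest on comparing cultures within a genotype. All 13 called genes moved the same way in both genotypes, which a call in this fit requires, because pairs that disagree widen the spread.

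**Figure D1:**
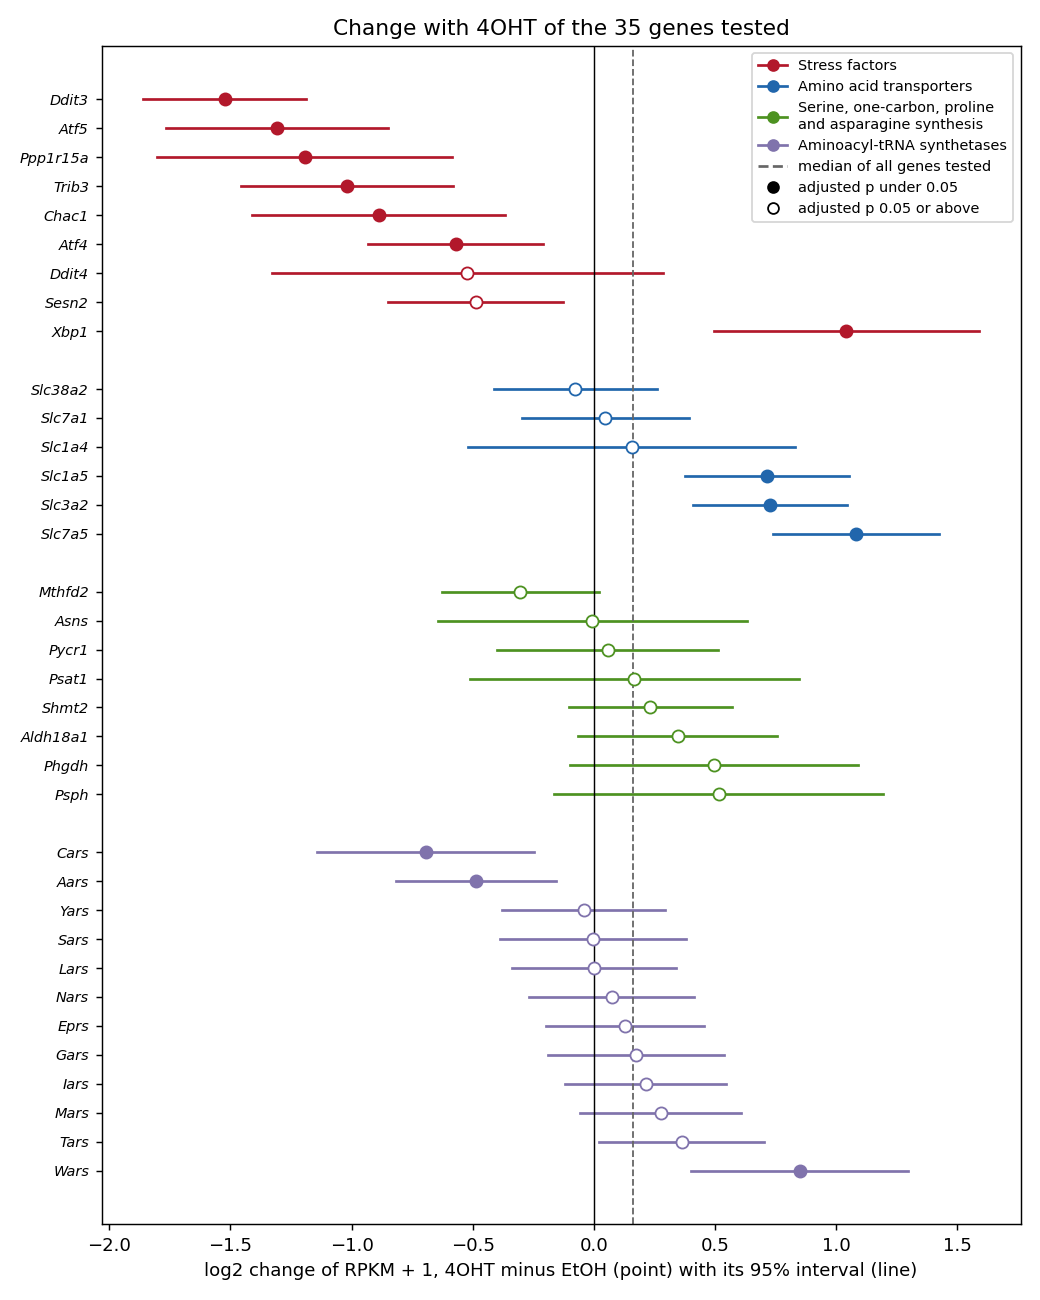
Change of each of the 35 tested genes as log2(RPKM + 1), 4OHT minus EtOH, on the horizontal axis, grouped by role and with 95% intervals from the limma fit (2 libraries per treatment). Filled points passed the adjusted p of 0.05; stress factors lie to the left except Xbp1 at 1.04, and 3 transporters lie to the right with changes from 0.72 to 1.08.

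Stress factors held the largest falls. Ddit3, which codes for the transcription factor CHOP, was at 41.0 RPKM with EtOH and 13.7 with 4OHT in Runx1 delta/delta cells, and at 51.7 and 17.3 in Runx1 delta/+ cells. Both EtOH libraries were high and both 4OHT libraries low, and the fold was nearly the same in both genotypes, 3.001-fold and 2.993-fold lower. The fitted change was -1.52 (SE 0.13, adjusted p = 0.00320). Atf4, the central transcription factor of the response and the most abundant of the 36 genes, stood at 304 and 312 RPKM with EtOH and at 235 and 183 with 4OHT (Runx1 delta/delta and delta/+). Its groups did not overlap, but its fall of -0.57 was the smallest among the called stress factors (SE 0.14, adjusted p = 0.0345). This call was lost when low genes were kept in the fit (adjusted p = 0.0774) and with an untrended prior (adjusted p = 0.0529). Relative to Atf4 RPKM, Ddit3 RPKM was 0.135 and 0.166 with EtOH and 0.0582 and 0.0946 with 4OHT.

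Atf5, a transcription factor related to ATF4 and also controlled through translation, was at 16.4 and 12.3 RPKM with EtOH and at 7.51 and 3.41 with 4OHT in Runx1 delta/delta and Runx1 delta/+ cells. All 4 values were separate by treatment, and the change was -1.31 (SE 0.18, adjusted p = 0.00778), or -0.83 without 4OHT replicate 2. Trib3, a pseudokinase induced by ATF4 and CHOP that restrains ATF4, was at 22.7 and 31.0 RPKM with EtOH and 12.9965 and 12.3 with 4OHT, a change of -1.02 (SE 0.17, adjusted p = 0.0127). Chac1, an ATF4 target that degrades glutathione, was low throughout, at 3.32 and 4.71 RPKM with EtOH and 1.87 and 1.504 with 4OHT. It fell by 0.89 (SE 0.21, adjusted p = 0.0284), a scale on which low genes change less than their plain ratios of 1.77-fold and 3.13-fold lower. The call of Chac1 was lost with no filter (adjusted p = 0.0876).

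Ppp1r15a codes for GADD34, the phosphatase subunit that removes phosphate from eIF2 and so ends the response. Its level was 125 RPKM with EtOH in Runx1 delta/delta cells and 64.2 in Runx1 delta/+ cells, but 38.8 and 38.6 with 4OHT. The 4OHT libraries were therefore almost equal, and the ratios of 3.23-fold and 1.66-fold lower differed through the EtOH libraries. The fitted change was -1.19 (SE 0.24, adjusted p = 0.0191), or -0.72 without EtOH replicate 1.

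Xbp1, the transcription factor that is spliced in the unfolded protein response of the endoplasmic reticulum, was the only stress factor that rose. Its level was 15.6 RPKM with EtOH and 44.0 with 4OHT in Runx1 delta/delta cells (2.82-fold higher), and 29.2 and 46.2 in Runx1 delta/+ cells (1.58-fold higher), a change of 1.04 (SE 0.22, adjusted p = 0.0204), or 0.61 without EtOH replicate 1. RPKM of the whole gene does not show how much of its RNA was spliced.

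Sesn2 and Ddit4, which restrain the growth kinase complex mTORC1, did not pass the test. Sesn2 stood at 33.1 and 23.7 RPKM with EtOH and 25.5 and 15.2 with 4OHT, lower within each genotype but with overlapping groups (change -0.49, SE 0.14, adjusted p = 0.0521), and median-ratio scaling called it lower (adjusted p = 0.00933). Ddit4 was at 38.8 and 43.3 RPKM in Runx1 delta/delta cells with EtOH and 4OHT, and at 82.9 and 35.5 in Runx1 delta/+ cells, so the pairs went in opposite directions (adjusted p = 0.260). In all, 6 of 9 stress factors fell (66.7%, against 10.2% of all genes tested), 1 rose (11.1%, against 22.2%) and 2 did not pass. Their median change was -0.89 on the log2 scale, with medians of -0.59 within Runx1 delta/delta and -1.19 within Runx1 delta/+ cells, beside 0.17 and 0.15 for all genes. The summed erythroid markers were also lower with 4OHT in both genotypes. Any gene that fell in both genotypes shares this, and a link to the 6 stress factors that fell was not tested.

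Of the 6 transporters tested 3 rose (50%, against 22.2% of all genes tested) and 0 fell (against 10.2%), with a median change of 0.44. Slc7a5 (LAT1) and Slc3a2 (CD98) form the exchanger that brings in leucine and other large neutral amino acids. Slc7a5 was at 74.9 and 64.0 RPKM with EtOH and at 175 and 125 with 4OHT (Runx1 delta/delta and delta/+). Every 4OHT value lay above every EtOH value, 2.33-fold and 1.95-fold higher within genotype, and the change of 1.08 passed the test (SE 0.14, adjusted p = 0.00651). Slc3a2 was at 74.9 and 85.1 RPKM with EtOH and at 128 and 137 with 4OHT, a change of 0.73 (SE 0.13, adjusted p = 0.0130). The ratio of Slc7a5 to Slc3a2 RPKM was 1.0004 and 0.752 with EtOH and 1.36 and 0.910 with 4OHT, higher with 4OHT in both genotypes; this difference was not tested. Slc1a5 (ASCT2), the glutamine importer whose cargo the LAT1 exchanger can trade for leucine, was at 25.4 and 32.3 RPKM with EtOH and 40.4 and 56.2 with 4OHT, and rose by 0.72 (SE 0.13, adjusted p = 0.0160).

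The other transporters were not called. Slc38a2 (SNAT2), an importer of small neutral amino acids, was at 28.3 and 40.6 RPKM with EtOH and 26.2 and 39.3 with 4OHT, and the 95% interval of its change ran from -0.41 to 0.26. Slc7a1, the importer of arginine and lysine, was at 19.7 and 16.0 RPKM with EtOH and 21.4 and 15.8 with 4OHT (interval -0.30 to 0.39). Slc1a4 (ASCT1), which carries serine and alanine, was at 1.63 and 3.16 RPKM in Runx1 delta/delta cells and at 5.42 and 4.03 in Runx1 delta/+ cells, again with EtOH first. Its pairs went in opposite directions, and its wide interval of -0.52 to 0.83 allows a rise or a fall. Slc7a11 (xCT), the cystine importer with 2 CARE cores shown above, was close to absent: it had 9 and 20 reads with EtOH and 18 and 7 with 4OHT, or 0.0193 to 0.0643 RPKM, and was below the level for testing. The summed mast cell and basophil markers were also higher with 4OHT in both genotypes, as were the blast markers and every other marker list except the erythroid and megakaryocyte ones. Any gene that rose in both genotypes shares this, and a link to the 3 transporters that rose was not tested.

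**Figure D2:**
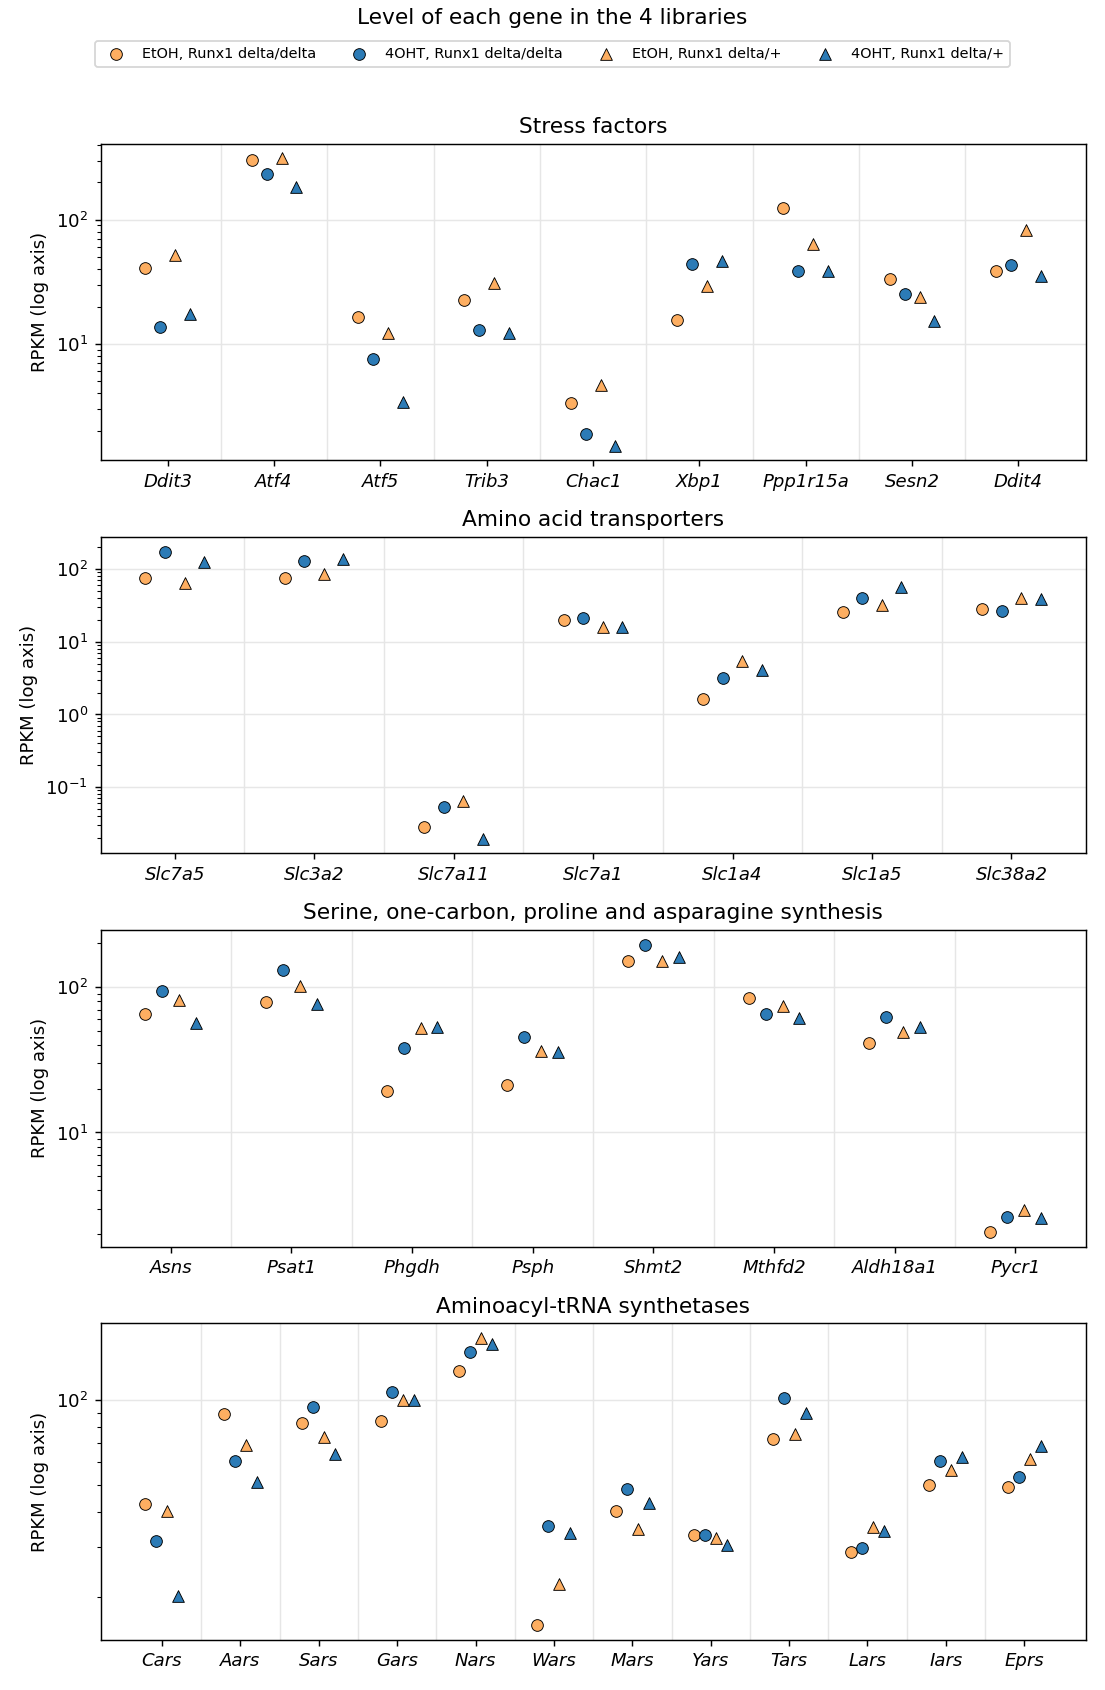
RPKM on a log axis of each of the 36 genes in the 4 libraries, 1 panel per role, with circles for Runx1 delta/delta, triangles for Runx1 delta/+, orange for EtOH and blue for 4OHT. Blue points lie below orange ones for Ddit3, Atf4, Atf5, Trib3, Chac1 and Ppp1r15a and above them for Xbp1, Slc7a5, Slc3a2, Slc1a5 and Wars, while Slc7a11 stays under 0.1 RPKM.

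Enzymes of amino acid synthesis, which share ATF4 as a regulator with the genes above, gave 0 calls among 8 genes tested with limma. Of all genes tested 32.4% were called. In that limma fit 0 of the 8 had an unadjusted p under 0.05, against 4387 of all 9595 genes tested. Their median change was 0.20, close to the 0.16 of all genes. With median-ratio scaling Mthfd2 alone was called lower (adjusted p = 0.0226). For several of these enzymes the pairs of libraries went apart. Asns, which makes asparagine from aspartate and glutamine, was at 65.5 RPKM with EtOH and 93.3 with 4OHT in Runx1 delta/delta cells, but at 80.8 and 56.3 in Runx1 delta/+ cells. The 2 ratios, 1.42-fold higher and 1.44-fold lower, cancelled to a change of -0.01. Psat1, the aminotransferase of serine synthesis, stood at 78.6 RPKM with EtOH and 130.1 with 4OHT for Runx1 delta/delta, and at 100.9 and 77.0 for Runx1 delta/+.

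Phgdh, the first enzyme of serine synthesis, was at 19.2 RPKM with EtOH and 38.0 with 4OHT in Runx1 delta/delta cells and at 51.9 and 53.5 in Runx1 delta/+ cells. The EtOH library of Runx1 delta/delta was the low one. Psph, the last enzyme of serine synthesis, showed the same layout, with 21.4 and 45.6 RPKM in Runx1 delta/delta cells and 36.6 and 35.8 in Runx1 delta/+ cells. In Runx1 delta/delta cells the 3 serine enzymes Phgdh, Psat1 and Psph were thus 1.98-fold, 1.66-fold and 2.14-fold higher with 4OHT. In Runx1 delta/+ cells their log2 ratios were 0.04, -0.39 and -0.03. With 1 library behind each value, a difference in response between genotypes cannot be tested.

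Shmt2 and Mthfd2 carry the serine carbon through the mitochondrial folate pathway. Shmt2, the second most abundant of the 36 genes, was at 151 and 149.9 RPKM with EtOH and 196 and 161 with 4OHT (interval -0.10 to 0.57). Mthfd2 was at 83.6 and 73.9 RPKM with EtOH and 65.6 and 61.5 with 4OHT, lower in both pairs and without overlap (change -0.30, adjusted p = 0.129). Aldh18a1 and Pycr1 make proline: the first was at 41.2 and 49.0 RPKM with EtOH and 61.8 and 53.3 with 4OHT, and the second was low at 2.06 to 2.91 RPKM in all libraries. Neither passed the test (adjusted p = 0.158 and 0.829). Over the 8 enzymes the log2 ratios had a median of 0.54 for Runx1 delta/delta and of -0.08 for Runx1 delta/+ cells.

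**Figure D3:**
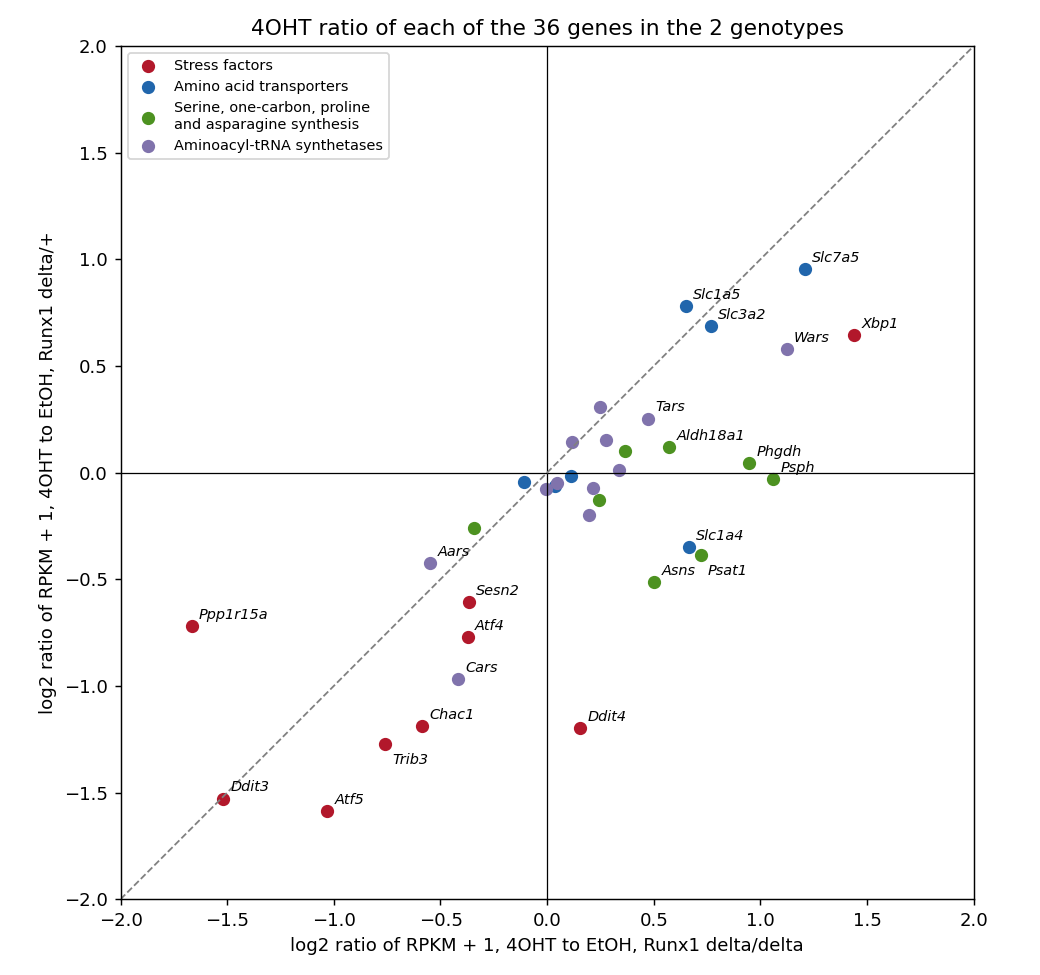
Log2 ratio of RPKM + 1, 4OHT to EtOH, of each of the 36 genes in Runx1 delta/delta cells (horizontal axis) and in Runx1 delta/+ cells (vertical axis), 1 pair of libraries each, coloured by role; the dashed line marks equal ratios. Ddit3 lies on the line at -1.52 and -1.53, whereas Asns, Psat1, Slc1a4 and Ddit4 lie in the quadrant of opposite signs.

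Ratios of opposite sign in the genotypes were found for 11 of the 36 genes: Ddit4, Slc7a11, Slc7a1, Slc1a4, Asns, Psat1, Psph, Pycr1, Sars, Nars and Lars. Of all genes tested 18.7% had opposite signs. For 5 of the 11 (Slc7a11, Slc7a1, Psph, Nars and Lars) at least 1 of the ratios was within 0.1 of 0 on the log2 scale. The other 6 were Ddit4 (0.16 and -1.20), Slc1a4 (0.66 and -0.35), Asns (0.50 and -0.51), Psat1 (0.72 and -0.39), Pycr1 (0.24 and -0.13) and Sars (0.19 and -0.20), with Runx1 delta/delta first. In each of these 6 the Runx1 delta/delta ratio was the positive one. With median-ratio scaling Ddit4, Slc7a1, Sars, Nars and Lars no longer had opposite signs.

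Aminoacyl-tRNA synthetases join amino acids to their tRNAs, and their genes are known ATF4 targets. Of 12 tested 2 fell and 1 rose, with a median change of 0.10. The 16.7% that fell and 8.33% that rose stand beside 10.2% and 22.2% of all genes, and the 25% called beside 32.4%. Cars, for cysteine, was at 42.5 and 40.4 RPKM with EtOH and at 31.6 and 20.2 with 4OHT. Both 4OHT values lay below both EtOH values, and the change was -0.69 (SE 0.18, adjusted p = 0.0363). Aars, for alanine, was at 89.1 and 68.9 RPKM with EtOH and at 60.6 and 51.1 with 4OHT, a change of -0.49 (SE 0.13, adjusted p = 0.0417). With no filter neither was called (adjusted p = 0.0660 for Cars and 0.0527 for Aars), and an untrended prior also lost Aars (adjusted p = 0.0542). Cars changed by -0.38 without 4OHT replicate 2 and Aars by -0.30 without EtOH replicate 1. Wars, for tryptophan, moved the other way, from 15.8 to 35.7 and from 22.2 to 33.6 RPKM, or 2.25-fold and 1.51-fold higher (change 0.85, SE 0.18, adjusted p = 0.0206). Wars is also known as a target of interferon signalling.

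The other 9 synthetases were not called. Tars, for threonine, came nearest to a call, at 72.6 and 75.3 RPKM with EtOH and 101 and 89.9 with 4OHT (change 0.36, interval 0.02 to 0.70, adjusted p = 0.0934). Mars, for methionine, was at 40.3 and 34.8 RPKM with EtOH and 48.1 and 43.2 with 4OHT, and Iars, for isoleucine, at 49.99 and 56.3 RPKM and then 60.7 and 62.8. Both were higher in each pair, and neither passed (adjusted p = 0.163 and 0.261). Gars, for glycine, was at 83.9 and 99.4 RPKM with EtOH and 106 and 100.2 with 4OHT, and Eprs, for glutamate and proline, at 48.9 and 61.9 RPKM and then 53.2 and 68.5. Nars, for asparagine, the most abundant synthetase, was at 127 and 166 RPKM with EtOH and 148 and 158 with 4OHT. Sars, Yars and Lars, for serine, tyrosine and leucine, had intervals of -0.39 to 0.38, -0.38 to 0.30 and -0.34 to 0.34, so that a change of 1 on the log2 scale in either direction lies outside them. The levels of these 3 ran from 64.3 to 94.5, from 30.6 to 33.2 and from 28.9 to 35.5 RPKM over the libraries.

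Between genotypes 0 of the 35 genes tested were called by limma, against 11.6% of all genes tested. In that limma fit 9 of the 35 had an unadjusted p under 0.05, against 3114 of all 9595 genes tested. The nearest were Sesn2, higher in Runx1 delta/delta by 0.59 (SE 0.14, adjusted p = 0.0578), Slc38a2, with a difference of -0.54 (SE 0.13, adjusted p = 0.0604), and Phgdh, with -0.94 (SE 0.24, adjusted p = 0.0614). For each of these 3 the values of the genotypes did not overlap, but the 3 were picked by their p in the same data. With median-ratio scaling 3 of the 35 genes passed in limma, against 1794 of all 9583 genes tested under that scaling. Sesn2 and Atf5 were higher in Runx1 delta/delta (adjusted p = 0.0213 and 0.0275) and Phgdh was lower (adjusted p = 0.0280). Each genotype stands for 1 number, so these differences cannot be told apart from those between mice or cultures.

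The authors' deposited table holds a further comparison, a Z-test after Kal within each pair of libraries, which compares those libraries and not the conditions. At a corrected p under 0.05 in the authors' deposited table, 7 of the 36 genes differed in Runx1 delta/delta (5 higher, 2 lower) where 3.98% of all rows did. The same deposited test by the authors gave 5 genes in Runx1 delta/+ (2 higher, 3 lower) where 1.91% of all rows differed. These shares are over 23240 rows, of which 9595 reached a mean of 1 RPKM, whereas 35 of the 36 genes did. The sets are thus unlike in level, and the shares are no like-for-like background for these genes. Ddit3, Slc7a5 and Slc3a2 passed in both pairs of the authors' deposited table. Its signed folds for Ddit3, in the authors' deposited table, were -2.82 and -2.89. Xbp1, Ppp1r15a, Psat1 and Psph passed in the authors' deposited table for Runx1 delta/delta alone, and Atf4 and Ddit4 for Runx1 delta/+ alone; whether these differ between genotypes was not tested.

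Upstream of these genes, kinases were called in both directions. Of 15 genes of the eIF2 kinases, eIF2 and its exchange factor eIF2B, 4 rose and 2 fell (with median-ratio scaling 0 and 4). These shares of 26.7% and 13.3% lie near the 22.2% and 10.2% of all genes tested. Eif2ak1, the haem-regulated kinase, was at 138 and 91.9 RPKM with EtOH and 49.3 and 47.9 with 4OHT, a change of -1.20 (SE 0.17, adjusted p = 0.00836). The summed erythroid markers were lower with 4OHT too, as is any gene that fell in both genotypes, and a link to Eif2ak1 was not tested. Eif2ak2, the kinase that senses double-stranded RNA, fell by 0.88 (SE 0.14, adjusted p = 0.0103), from 42.7 and 35.2 RPKM to 21.3 and 19.9. Eif2ak4 (GCN2), which senses uncharged tRNA, rose by 0.58 (adjusted p = 0.0335) and Eif2b1 by 0.57 (adjusted p = 0.0343), and neither was called with median-ratio scaling (adjusted p = 0.102 for both).

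Other known targets of ATF4 and CHOP also went in both directions. Of 24 such genes 16 were tested, and 4 rose and 4 fell (4 and 5 with median-ratio scaling), or 25% each way beside 22.2% and 10.2% of all genes. Gadd45a, a stress gene of growth arrest, was at 23.0 and 16.0 RPKM with EtOH and 3.09 and 2.11 with 4OHT (change -2.50, SE 0.14, adjusted p = 0.00176). Gdf15, a secreted stress cytokine, went from 8.56 and 5.01 RPKM to 0.929 and 0.140 (change -2.35, SE 0.17, adjusted p = 0.00233). Both genes were lower in each genotype, and their groups did not overlap. Slc6a9, a glycine transporter also used by red cell precursors, fell by 1.01 (adjusted p = 0.0133), and Tnfrsf10b, a death receptor, rose by 1.10 (adjusted p = 0.00804).

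In the unfolded protein response of the endoplasmic reticulum, to which Xbp1 belongs, 10 of 19 tested genes rose and 0 fell (8 and 2 with median-ratio scaling). This is 52.6% higher, beside 22.2% higher and 10.2% lower over all genes, and the median change was 0.51. Calr, a calcium-binding chaperone, was at 290 and 381 RPKM with EtOH and 705 and 670 with 4OHT (change 1.05, SE 0.15, adjusted p = 0.00787). Hyou1, an Hsp70-like chaperone, rose by 1.15 (adjusted p = 0.00587), Ern1, the kinase that splices Xbp1, by 1.09 (adjusted p = 0.00651) and Hsp90b1, another chaperone, by 0.72 (adjusted p = 0.0132).

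Amino acid genes outside the 36 are set beside all genes tested, of which 22.2% rose and 10.2% fell. Of 9 other transporters tested 4 rose (44.4%) and 1 fell (11.1%): Slc7a8 (LAT2), the relative of Slc7a5, went from 29.3 and 27.3 RPKM to 117 and 91.6 (change 1.84, SE 0.14, adjusted p = 0.00288). Slc7a6 rose by 1.67 (adjusted p = 0.00315) and Slc36a1, a lysosomal exporter, by 0.89 (adjusted p = 0.0129). Slc43a1 (LAT3) fell by 1.19 (adjusted p = 0.0115). Of 16 other serine, glycine and folate enzymes 9 rose (56.3%), and 5 with median-ratio scaling. Shmt1, the cytosolic partner of Shmt2, went from 8.65 and 14.5 RPKM to 36.5 and 47.6 (change 1.80, SE 0.15, adjusted p = 0.00315).

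Among the 11 other cytosolic synthetases and scaffold proteins 5 rose (45.5%) and 0 fell, among them Eef1e1 (0.86, adjusted p = 0.0302) and Rars (0.53, adjusted p = 0.0316), but median-ratio scaling left 1. The 17 mitochondrial synthetases were called in 35.3% of cases, close to the 32.4% of all genes: 6 rose and 0 fell (3 and 1 with median-ratio scaling), led by Tars2 (0.74, adjusted p = 0.0149) and Aars2 (0.78, adjusted p = 0.0160). Of 17 tested genes of amino acid sensing by mTORC1 2 rose and 1 fell (1 and 3 with median-ratio scaling), 17.6% called beside the same 32.4%. Tsc2, an inhibitor of mTORC1, was at 52.3 and 29.2 RPKM with EtOH and 16.9 and 12.3 with 4OHT (change -1.38, SE 0.16, adjusted p = 0.00582). Rragb, a Rag GTPase that brings mTORC1 to the lysosome, rose by 1.16 from a low level of 0.646 and 0.897 RPKM (adjusted p = 0.0105).

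**Figure D4:**
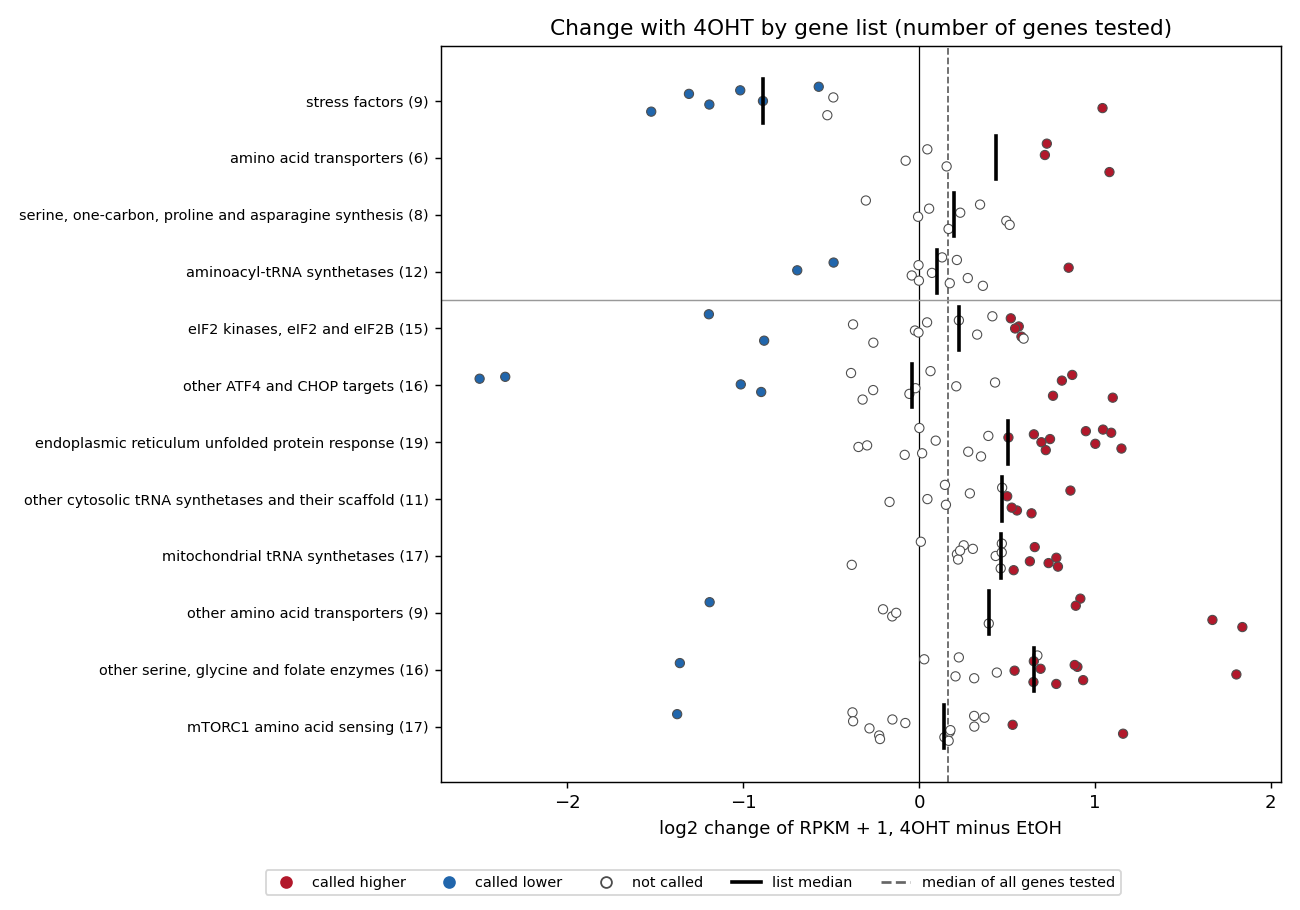
Change of log2(RPKM + 1), 4OHT minus EtOH, on the horizontal axis for every tested gene of the 4 roles (above the grey line) and of 8 other lists of the pathway, with red for called higher, blue for called lower, white for not called and a black bar at each list's median. The stress factors have a median of -0.89, the endoplasmic reticulum list one of 0.51 and all genes tested, marked by the dashed line, one of 0.16.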

How the data were processed

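RNA was sequenced in 4 libraries. Per the file headers, the authors deposited RPKM for each library, and for each pair of libraries a signed fold of proportions (taken here as a score) and the p-value of a Z-test after Kal, raw and corrected. Per the labels' protocols, sorted cells gave total RNA and a TruSeq or a NEBNext kit was used; the kit of each library, the aligner, the annotation, the counting rule and strand use were not given in the sources used here. Build mm 9 is named by the submitters' processing notes. Reads of overlapping genes cannot be told apart.

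Since RPKM of a gene are multiples of 1 read, library totals were estimated from the steps. By this estimate 1 read in 1 kb is worth 0.0254 to 0.0297 RPKM. Its absolute size rests on 97 of 437 single-transcript genes that shared the commonest total. Whole reads were found for 99.8% of genes above 0 (tolerance 0.02 reads), but the search was wide enough that matches can arise by chance. Reads were not counted as independent molecules. limma 3.58.1 in R 4.3.3 was run on log2(RPKM + 1) with terms for treatment and genotype, a trended prior and two-sided tests, keeping genes whose mean reached 1 RPKM. Residual degrees of freedom numbered 1, and the prior gave 4.37 more. Genotype equals the replicate number; libraries sharing a number deviated together (correlation across genes 0.664). The fit was tested on simulated data. Alternatives were another scaling, pseudocount, filter or prior, a model without genotype and leaving out each library. The 36 genes, the 8 pathway lists and the 8 marker lists were chosen with earlier results of these data known; from each list up to 4 genes with the smallest p are named; 1 such gene is not reported here. Promoters came from RefSeq (GRCm38.p6, matched by symbol) and only motifs were searched in them; no coordinates were joined to the table.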

Additional observations from a re-analysis of the deposited data

Results flagged for a closer look

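For 11 of the 36 genes the pair of Runx1 delta/delta libraries moved one way with 4OHT and the pair of Runx1 delta/+ libraries the other way. The difference was not tested, because each value rests on 1 library. Given as the log2 ratio of 4OHT to EtOH in Runx1 delta/delta minus that in Runx1 delta/+, the gap was 1.35 for Ddit4, 1.11 for Psat1, 1.09 for Psph, 1.02 for Asns and 1.01 for Slc1a4. It was 0.39 for Sars, 0.37 for Pycr1, 0.29 for Nars, 0.13 for Slc7a1 and 0.10 for both Lars and Slc7a11. Slc7a11 had only 7 to 20 reads per library. Rescaled by the median ratio, 12 genes had opposite signs, but they were not the same genes. Ddit4, Slc7a1, Sars, Nars and Lars left the list, and Phgdh, Shmt2, Aldh18a1, Gars, Mars and Iars entered it.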

How the results depend on the processing

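The 13 called genes kept their direction under every alternative in which they were tested (12 of 13 at a mean of at least 5 RPKM, which drops Chac1). Most alternatives could not have turned it. The filters, the prior and the model without genotype leave the estimate unchanged in this balanced design. EtOH and 4OHT values of these genes did not overlap, so another pseudocount or a left-out library could not reverse them. Only the rescaling could have done so. Calls among the 36 genes numbered 15 with median-ratio scaling, 13 with a pseudocount of 0.1, 9 with no filter (losing Atf4, Chac1, Cars and Aars), 12 with the stricter filter and 11 with an untrended prior (losing Atf4 and Aars). Over all genes tested, calls numbered 2991 of 9595 with that pseudocount and 2283 of 17213 with no filter. They numbered 2209 of 7276 with the stricter filter and 2965 of 9595 with an untrended prior. Without the replicate block, that is without the genotype term, 1 gene was called, and 233 of all genes in place of 3113. Leaving out 1 library at a time, also without that block, gave 0 to 1 calls among the 36 genes and 39 to 251 among all genes (0 without EtOH replicate 1 or EtOH replicate 2, 1 without 4OHT replicate 1, Atf5, and 1 without 4OHT replicate 2, Ddit3); fewer samples and no genotype term go together there. Of the called genes, 5 moved by over 1.5 times on leaving out a library: Xbp1 (0.61 to 1.48), Ppp1r15a (-1.67 to -0.72), Atf5 (-1.78 to -0.83), Cars (-1.004 to -0.38) and Aars (-0.67 to -0.30). Median-ratio scaling kept the total at 3107 but turned 2130 higher and 983 lower into 1441 and 1666. For the genotypes 1112 genes were called, 1794 with median-ratio scaling (3 of them among the 36), 646 at a mean of at least 5 RPKM, 0 with no filter (3906 at an unadjusted p under 0.05), 0 without the block for treatment (880 unadjusted) and 0 on leaving out any library (166 to 629 unadjusted); the cause was not tested. Under median-ratio scaling 8 uncalled genes changed sign: Slc7a1 (-0.16), Slc1a4 (-0.0064), Psat1 (-0.053), Pycr1 (-0.10), Gars (-0.046), Nars (-0.15), Iars (-0.0039) and Eprs (-0.088). Leaving out a library, uncalled genes changed sign within these ranges: Slc7a1 -0.16 to 0.25, Slc38a2 -0.36 to 0.21, Psat1 -0.21 to 0.54, Lars -0.15 to 0.14, Asns -0.37 to 0.35, Sars -0.28 to 0.27, Yars -0.10 to 0.013, Eprs -0.048 to 0.31, Slc1a4 -0.49 to 0.80, Phgdh -0.20 to 1.19, Pycr1 -0.12 to 0.23, Nars -0.12 to 0.27 and Ddit4 -1.06 to 0.017. Depth limits Slc7a11, with 7 to 20 reads, and for every gene the spread rests on 1 residual degree of freedom.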
